A study of Populus trichocarpa with 9 samples.

Results

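Tension wood is the wood that broadleaved trees form on the upper side of a leaning stem, known for fibers with a cellulose-rich inner layer and for little lignin. Stem differentiating xylem (SDX) is the soft layer under the bark where young wood cells build secondary walls. There, lignin precursors (monolignols) are made from phenylalanine by a chain of enzymes, and cellulose is made at the plasma membrane by complexes of cellulose synthases.

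The 6 bent SDX libraries of black cottonwood (Populus trichocarpa) were pooled and compared with the 3 unbent ones, so that 9 of 9 samples of the series took part. The trees were greenhouse-grown, 6 months old and of the genotype Nisqually-1. SDX was scraped from the upper side of stems bent to a right angle for 3 d (3 libraries) or 7 d (3 libraries), and from the matching place on unbent day 0 stems (3 libraries). No unbent stems are labelled day 3 or day 7, so the effect of bending and that of the days that passed until harvest cannot be told apart. The labels number the replicates without saying that each was a separate tree, though the study calls its replicates biological, so p-values reflect only how these samples spread, and how much of that spread is technical is not known. The question was what both bending times share, and it was put to the average of the 3 d and 7 d effects: the mean of both log2 fold changes against unbent, taken from a fit of the 3 groups in which each time has equal weight. Because both effects are measured against the same unbent libraries, they are given side by side and never correlated.

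Of 31 named wood genes, 5 were lower in bent than in unbent xylem on average and 0 were higher (edgeR; PtrCesA18 was the only positive one with an unadjusted p under 0.05, and DESeq2 called it higher). The genes that fell were those of both transcription factors on the list, PtrHSFB3-1 and PtrMYB092, the lignin-pathway genes PtrPAL1 and PtrPAL3, and the glucomannan synthase gene PtrCslA2. Each was negative at both times, and in each the highest bent library lay below the lowest unbent one. The study picked both factors, PtrPAL1, PtrPAL3, PtrC4H2, Ptr4CL5 and PtrHCT1 for being lower in these same libraries, so their falls here are not independent evidence. A gene was called when its Benjamini-Hochberg adjusted p from edgeR's quasi-likelihood test, over 27795 genes, was under 0.05. Of all genes tested, 1.38% were called lower and 2.69% higher. In a whole tissue, fewer cells of a type and less RNA per cell cannot be told apart.

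Levels are CPM, in which each count is divided by the size of its library, scaled by edgeR's TMM factors. PtrHSFB3-1 (Potri.006G049200) encodes a class B heat shock factor, a family of DNA-binding proteins named for the heat response. It stood at 23.9, 17.9 and 17 CPM in the unbent libraries, at 7.66, 8.01 and 3.83 CPM after 3 d, and at 7.76, 6.22 and 6.39 CPM after 7 d. Bent and unbent libraries did not overlap, and the 7 d libraries lay within the range of the 3 d ones. The mean went from 19.6 ± 3.75 (SD, n = 3) to 6.65 ± 1.57 CPM (SD, n = 6), an average log2 change of -1.56 ± 0.23 (SE; edgeR adjusted p = 0.0206). The change was -1.59 at 3 d and -1.53 at 7 d, and the difference of 7 d from 3 d was 0.07 ± 0.28 (SE). PtrMYB092 (Potri.001G118800) encodes an R2R3 MYB factor, of the family that holds many regulators of secondary walls. Its levels were 88.7, 34.8 and 97.4 CPM unbent, 27.3, 28.8 and 26.4 CPM after 3 d, and 25.7, 27.0 and 14.3 CPM after 7 d. Unbent replicate 2 stood far below the other unbent libraries but above every bent one. The average log2 change was -1.57 ± 0.30 (SE; edgeR adjusted p = 0.0284), with -1.42 at 3 d and -1.72 at 7 d. Without unbent replicate 2 the fall in PtrMYB092 was larger, at -1.89.

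The first enzyme of the lignin pathway is phenylalanine ammonia-lyase (PAL), which turns phenylalanine into cinnamic acid. PtrPAL1 (Potri.006G126800) was at 1109, 528 and 1695 CPM in the unbent libraries, at 325, 355 and 483 CPM after 3 d and at 317, 253 and 195 CPM after 7 d. PtrPAL3 (Potri.016G091100) was at 572, 246 and 677 CPM unbent, at 173, 152 and 235 CPM after 3 d and at 172, 127 and 79.0 CPM after 7 d. In both genes unbent replicate 2 was the lowest control, close above the highest bent library, 3 d replicate 3. The average log2 change was -1.82 ± 0.33 (SE; edgeR adjusted p = 0.0255) for PtrPAL1. It was -1.70 ± 0.33 (SE; edgeR adjusted p = 0.0286) for PtrPAL3. PtrPAL1 was the third most abundant of the 383 genes called lower, by unbent CPM. The other PAL genes were not called, and differences between copies of the family other than the pair ratios given further on were not tested. PtrPAL2, at 353 to 552 CPM unbent and 144 to 585 CPM bent, averaged -0.36 ± 0.31 (SE; -0.81 at 3 d, 0.10 at 7 d). PtrPAL4 and PtrPAL5, a neighbouring pair by ID (Potri.010G224100 and Potri.010G224200), had average changes of 0.08 ± 0.34 and 0.05 ± 0.34 (SE), which turned to -0.11 and -0.14 when library totals replaced the TMM factors. Both gave values of opposite sign at the times: PtrPAL4 was at -0.53 at 3 d and at 0.70 at 7 d, and PtrPAL5 at -0.58 and 0.68. Their bent libraries spread from 323 to 1765 CPM in PtrPAL4, around unbent levels of 676 to 957 CPM.

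PtrCslA2 (Potri.010G234100) encodes a glucomannan synthase, which makes the backbone of a hemicellulose. It had the largest average fall of the 31 genes. Unbent levels were 231, 171 and 361 CPM, those after 3 d were 89.8, 68.5 and 42.5 CPM, and those after 7 d were 69.6, 40.4 and 18.6 CPM. No bent library reached the lowest unbent one. The mean fell from 254 ± 97.1 (SD, n = 3) to 54.9 ± 25.7 CPM (SD, n = 6), a log2 change of -2.24 ± 0.39 (SE; edgeR adjusted p = 0.0240), or 4.74-fold lower. Both times took part, with -1.92 at 3 d and -2.57 at 7 d. PtrIRX10-1, which encodes a xylosyltransferase of the xylan backbone, the other hemicellulose gene of the list, had an average change of 0.60 ± 0.28 (SE; edgeR adjusted p = 0.280), from 0.08 at 3 d and 1.11 at 7 d.

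**Figure D1:**
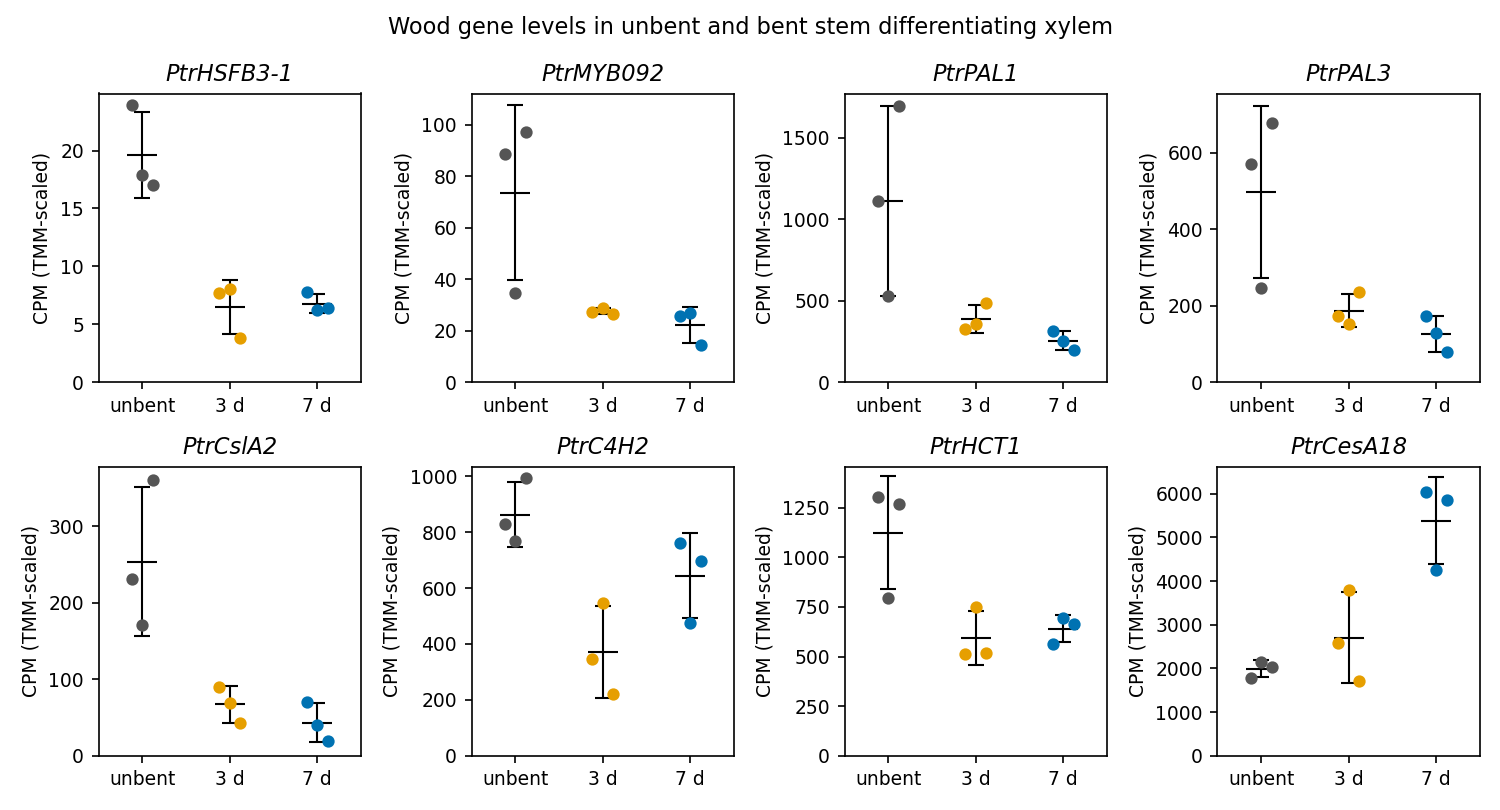
TMM-scaled CPM (linear axes from 0) of 8 wood genes in unbent, 3 d and 7 d libraries; each point is a library, and the bar and whiskers are the mean and SD of 3. In PtrHSFB3-1, PtrMYB092, PtrPAL1, PtrPAL3 and PtrCslA2, which were called lower, and in PtrC4H2 and PtrHCT1, which were not called, every bent library lies below every unbent one, while PtrCesA18 has 3 d replicate 3 at 1721 CPM, below all unbent libraries.

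These 5 calls rest on few libraries. All 5 were lost without unbent replicate 1, without unbent replicate 3 or without 7 d replicate 3, where adjusted p ran no higher than 0.116 and the log2 changes kept their sign. PtrMYB092 and PtrPAL3 were also lost without 3 d replicate 1 or 2, PtrMYB092 without 7 d replicate 1 and PtrPAL3 without 7 d replicate 2. With any 1 library left out, the change ranged from -1.65 to -1.40 for PtrHSFB3-1, from -1.89 to -1.30 for PtrMYB092, from -2.14 to -1.37 for PtrPAL1, from -2.01 to -1.40 for PtrPAL3 and from -2.51 to -1.90 for PtrCslA2. When the 6 bent libraries were fitted as 1 group, which leaves the difference between the times in the spread, only PtrHSFB3-1 was called.

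A further 3 wood genes had every bent library below every unbent one without passing the test, which made 8 of 31, and no wood gene had every bent library above. Of all genes tested, 3.79% had all 6 bent libraries below all 3 unbent ones and 4.42% had them above. PtrHCT1 encodes hydroxycinnamoyl transferase, which couples the pathway's intermediates to shikimate. Its levels were 1306, 796 and 1269 CPM unbent, 515, 749 and 516 CPM after 3 d, and 564, 695 and 664 CPM after 7 d. The change of PtrHCT1 was alike at both times (-0.92 at 3 d, -0.81 at 7 d) and averaged -0.87 ± 0.22 (SE; edgeR adjusted p = 0.0650). PtrC4H2, for cinnamate 4-hydroxylase, the second enzyme, was at 828, 767 and 994 CPM unbent, at 348, 547 and 220 CPM after 3 d, and at 762, 474 and 698 CPM after 7 d. At 7 d, replicate 1 (762 CPM) came close to the lowest unbent library (767 CPM), replicate 2 did not, and the average was -0.82 ± 0.28 (SE; edgeR adjusted p = 0.146). The third was PtrCAld5H2, for coniferaldehyde 5-hydroxylase of the syringyl branch, with unbent libraries at 762 to 995 CPM and bent ones at 267 to 719 CPM. Its average was -0.72 ± 0.28 (SE; edgeR adjusted p = 0.193). Ptr4CL5, for a 4-coumarate CoA ligase, had near-equal changes of -1.06 at 3 d and -1.09 at 7 d, but 7 d replicate 1 (81.4 CPM) lay above unbent replicate 2 (75.8 CPM). Its average was -1.07 ± 0.29 (SE; edgeR adjusted p = 0.0736).

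The lignin pathway as a whole did not move in 1 direction. Of 22 monolignol genes, 2 were called lower, 0 higher and 20 were not called, and 14 had a negative and 8 a positive average. Their median log2 change was -0.33, against -0.03 over all genes tested. The median was -0.76 at 3 d and 0.15 at 7 d, so the average hides opposite values. Of the 22, 13 were negative at 3 d and positive at 7 d, 8 were negative at both times, and PtrCCoAOMT3 alone was positive at both. None of these 13 was called by edgeR at either time, and their 7 d changes ran from 0.01 (PtrAldOMT2) to 0.93 (PtrCSE2). TMM factors were 1.04 to 1.11 unbent and 0.838 to 0.977 at 7 d, so library totals would lower the 7 d changes. Which signs would then turn was not tested. Over all 31 wood genes, 48.4% were negative at 3 d and positive at 7 d, against 14.6% of all genes tested. In 17 of the 31 the difference between the times had an unadjusted p under 0.05 (edgeR), beside 5617 of all 27795 genes tested. None of the 31 passed the adjustment over all genes (edgeR, smallest adjusted p among them 0.149). The 17 are not separate observations, as 3 d replicate 3 had the lowest level in 21 of the 31.

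In the libraries, summed CPM of the 22 monolignol genes ran from 14714 to 18850 unbent, from 7612 to 12990 after 3 d, and from 12302 to 20152 after 7 d. All 3 d sums lay below the unbent range, and 7 d sums lay on both sides of it. By enzyme step, hydroxycinnamoyl transferase (PtrHCT1 and PtrHCT6) was the only step whose summed level did not overlap between all bent and all unbent libraries, at 568 to 823 CPM bent and 881 to 1366 CPM unbent. Nearly all of that sum is PtrHCT1, as PtrHCT6 stood at 53.5 to 136 CPM. The PAL step overlapped, at 1397 to 4021 CPM bent and 2785 to 4451 CPM unbent, since PtrPAL4 and PtrPAL5 were high in 7 d replicates 1 and 3. Later steps kept overlapping too, and the genes for the last enzyme, cinnamyl alcohol dehydrogenase (PtrCAD1), and for cinnamoyl-CoA reductase (PtrCCR2) averaged 0.19 ± 0.24 and -0.03 ± 0.23 (SE).

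**Figure D2:**
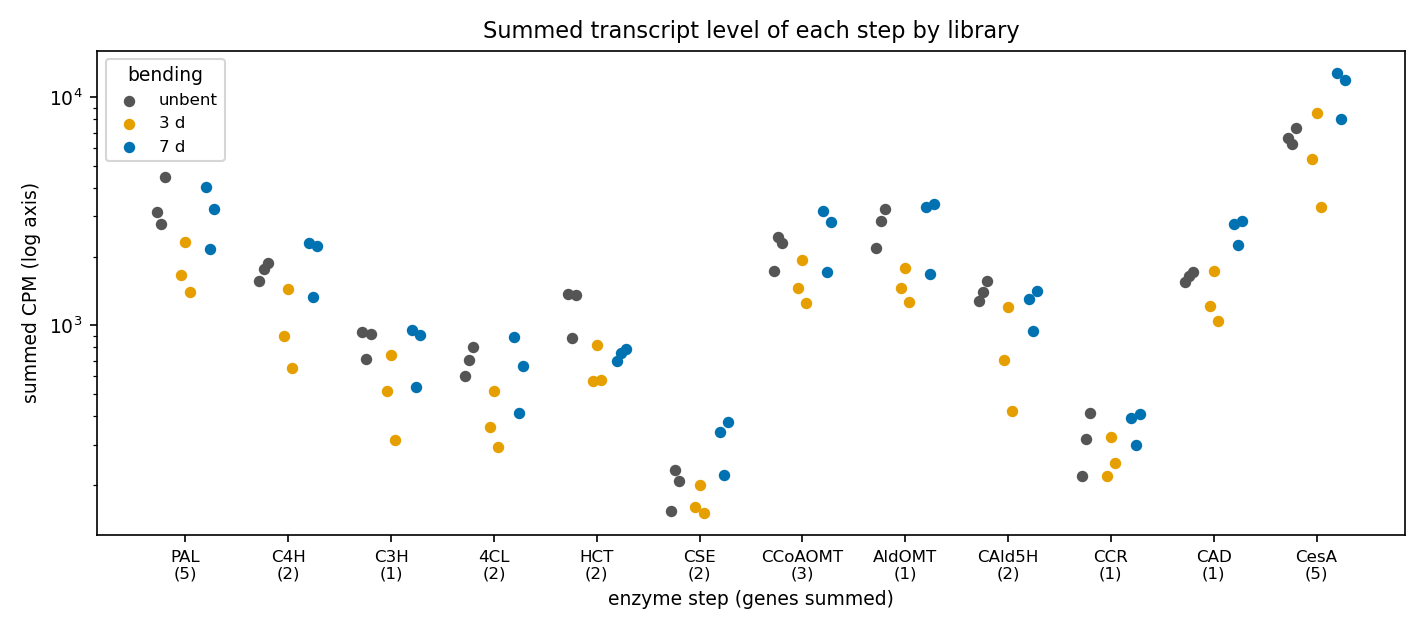
Summed TMM-scaled CPM (log axis) of the genes of each lignin-pathway step and of the secondary wall cellulose synthases, with the number of genes summed in brackets; each point is a library. In the HCT step the bent libraries (568 to 823 CPM) lie wholly below the unbent ones (881 to 1366 CPM), and in the other steps they overlap.

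Total counts were 20888144 to 29539805 per library. Library 3 d replicate 3 stood low across the wood genes: it had the lowest CPM of all 9 libraries in 21 of 31, while 7 d replicate 1 had the highest in 12. Its part in the averages was measured by leaving it out, after which the monolignol median was -0.18, and the same 5 wood genes were called. Actin (PtrActin, a cytoskeleton gene among the study's PCR primers) stood at 700 to 907 CPM in the bent and 794 to 904 CPM in the unbent libraries, an average log2 change of -0.13 ± 0.16 (SE; edgeR adjusted p = 0.711).

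**Figure D3:**
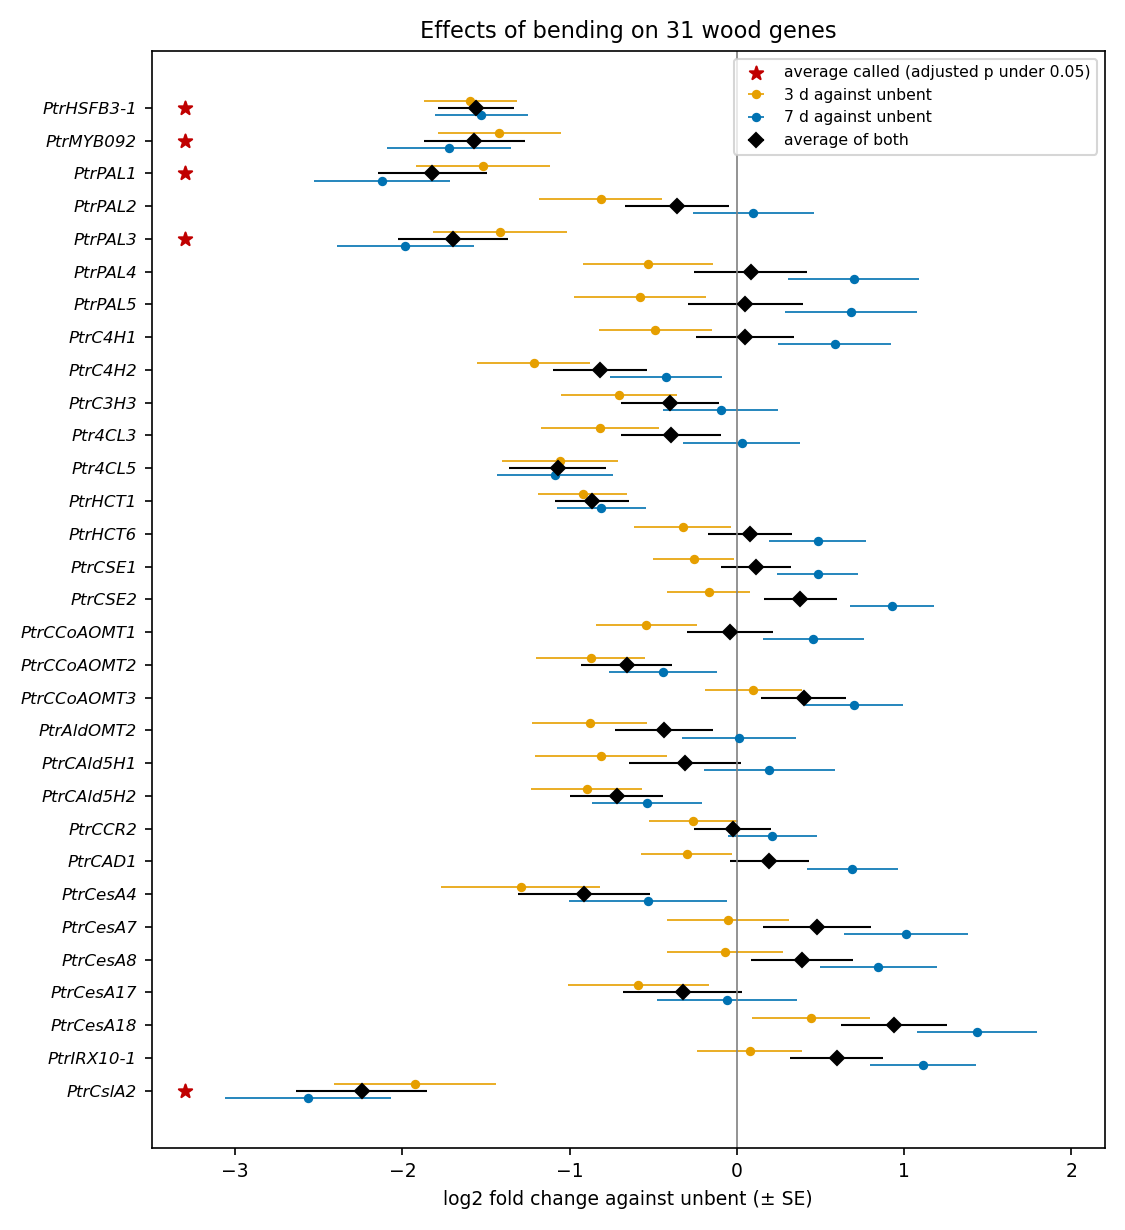
Log2 fold change against unbent (± SE) at 3 d, at 7 d and on average for 31 wood genes, with a star at each average that was called. PtrHSFB3-1, PtrMYB092, PtrPAL1, PtrPAL3 and PtrCslA2 lie below 0 at both times and carry stars. In all, 13 genes lie below 0 at both times, and those without a star are PtrC4H2, PtrC3H3, Ptr4CL5, PtrHCT1, PtrCCoAOMT2, PtrCAld5H2, PtrCesA4 and PtrCesA17. A further 15 lie below 0 at 3 d and above 0 at 7 d, and 3 lie above 0 at both times.

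The secondary wall cellulose synthases, which also mark the tissue as xylem laying down secondary walls, were abundant in every library, with summed levels of 6249 to 7316 CPM unbent and 3295 to 12794 CPM bent. None of 5 was called on average in either direction by edgeR, with unadjusted p under 0.05 in PtrCesA18 and PtrCesA4. DESeq2 called PtrCesA18 higher (adjusted p = 0.00269). PtrCesA18 (Potri.004G059600) was at 1773, 2152 and 2042 CPM unbent, at 2591, 3804 and 1721 CPM after 3 d and at 6047, 4245 and 5862 CPM after 7 d. Only 3 d replicate 3 kept its bent libraries from lying wholly above the unbent ones. The average was 0.94 ± 0.32 (SE; edgeR adjusted p = 0.139), from 0.44 at 3 d and 1.44 at 7 d, and the 7 d effect alone was called higher (edgeR adjusted p = 0.0405). PtrCesA7 and PtrCesA8 averaged 0.48 ± 0.32 and 0.39 ± 0.31 (SE). PtrCesA4 averaged -0.91 ± 0.40 and PtrCesA17 -0.32 ± 0.36 (SE). The median of the 5 was 0.39 (-0.07 at 3 d, 0.85 at 7 d).

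Several wood genes are pairs of close copies. Gene sequences were not compared here, and a primer covers only a short stretch. The study's forward RT-qPCR primers are shown for some of the pairs: capitals mark the 3′ bases that differ within a pair.
PtrPAL1: ccatccaggtcaaattgaggctgcT
PtrPAL3: catccaggtcaaattgaggctgcA
PtrPAL4: gagatgctggaagctatcaccaaAT
PtrPAL5: gagatgctggaagctatcaccaaGC
PtrCesA8: gttggcctctgtcttctctcttgtC
PtrCesA18: gttggcctctgtcttctctcttgtT

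How reads that fit both copies of a pair were counted is not given in the sources used here, so the levels of close copies are uncertain. A ratio between copies within a library does not depend on scaling factors, and asks whether both copies changed alike. Of 10 pairs, 0 had a ratio that differed between bent and unbent libraries after adjustment over the pairs, by a two-sided exact permutation test over 84 arrangements whose smallest possible p is 0.0119, and 4 had an unadjusted p under 0.05. Even a pair at that smallest p passes the adjustment only if other pairs have a low p as well, so 0 passing says little about any pair. In 3 pairs the ratios of all 6 bent libraries lay above those of all 3 unbent ones. The log2 ratio of PtrC4H1 to PtrC4H2 was -0.18, 0.39 and -0.17 unbent, 0.65, 0.70 and 0.97 after 3 d and 1.01, 0.86 and 1.14 after 7 d. The balance lay toward PtrC4H1 at both times, by 0.88 on average (exact permutation p = 0.0119, adjusted p = 0.0595). That of PtrCesA7 to PtrCesA17 went from 0.49 ± 0.24 (SD, n = 3) to 1.33 ± 0.29 (SD, n = 6; exact permutation p = 0.0119, adjusted p = 0.0595).

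The ratio of PtrCCoAOMT1 to PtrCCoAOMT2, for the enzyme that methylates caffeoyl-CoA, was 0.24 ± 0.07 (SD, n = 3) unbent and 0.87 ± 0.39 (SD, n = 6) bent, apart in every library (exact permutation p = 0.0476, adjusted p = 0.119). That of PtrCesA8 to PtrCesA18 shifted by -0.56, toward PtrCesA18 (exact permutation p = 0.0238, adjusted p = 0.0794), with 1 unbent library inside the bent range. PtrHCT1 to PtrHCT6 shifted by -0.90 (exact permutation p = 0.107, adjusted p = 0.214), most of it in 7 d replicates 1 and 3. In the PAL pairs, whose primers are shown first, the shifts were small. PtrPAL1 to PtrPAL3 shifted by -0.07 (-0.15 to 0.03 with any 1 library left out) and PtrPAL4 to PtrPAL5 by 0.03 (0.00 to 0.06), although PtrPAL1 and PtrPAL3 fell and PtrPAL4 and PtrPAL5 did not pass the test.

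**Figure D4:**
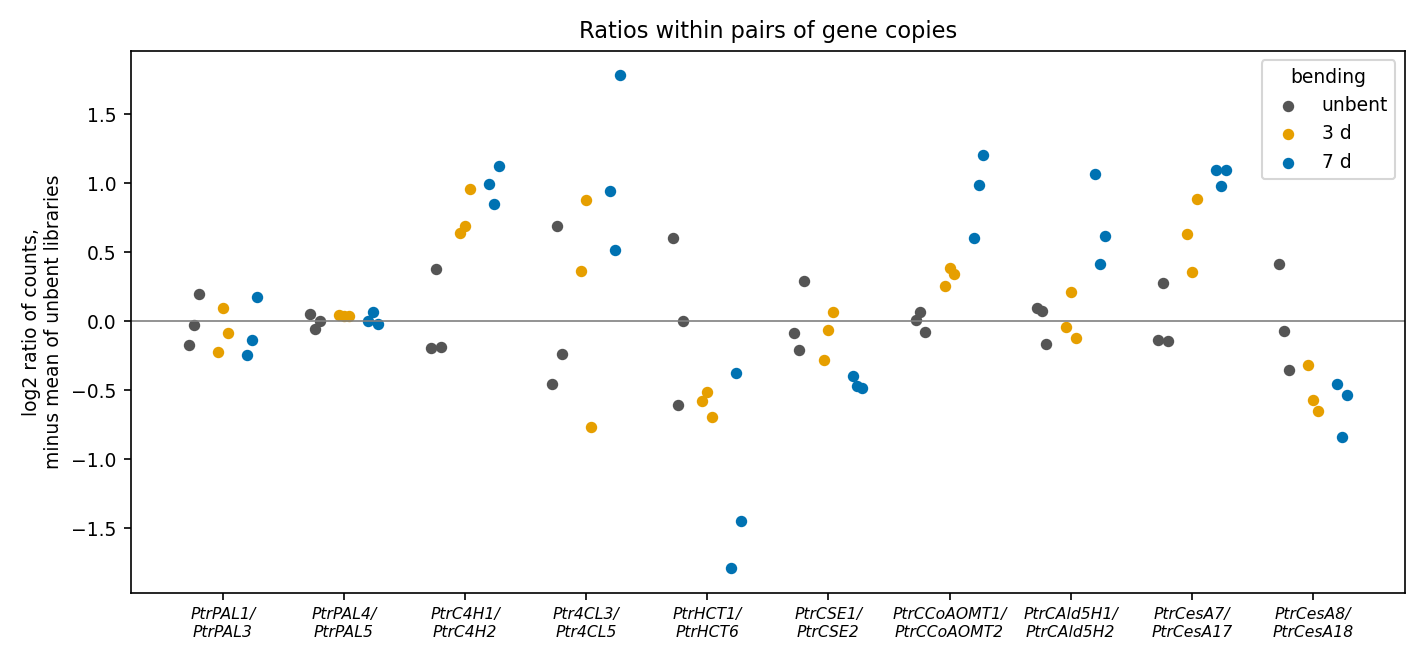
Log2 ratio of counts within 10 pairs of gene copies in each library, as the difference from the mean of the unbent libraries; a point is a library. Bent libraries lie above all unbent ones in PtrC4H1/PtrC4H2, PtrCCoAOMT1/PtrCCoAOMT2 and PtrCesA7/PtrCesA17, and mix with them in PtrPAL1/PtrPAL3 and PtrPAL4/PtrPAL5.

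Across the genome, 1130 of 27795 genes (4.07%) were called on average, 747 higher and 383 lower. Those called higher had a median log2 change of 1.39, with 543 over 2-fold and 158 over 4-fold, and those called lower had a median of -1.13, with 231 over 2-fold and 43 over 4-fold. The fit called 0 genes when it tested for a change of more than 2-fold (edgeR glmTreat, 984 at an unadjusted p under 0.05), so no single gene was shown to exceed that size. When library totals replaced the TMM factors the median of all genes moved by over 0.1, to -0.18, and the split of calls turned from 66.1% higher to 41.2% higher (619 higher, 883 lower). The share of genes that rose against those that fell is therefore relative to the scaling. The count also depends on single libraries: it was 0 without unbent replicate 1 (3913 genes at an unadjusted p under 0.05), 0 without unbent replicate 3 (4400) and 0 without 7 d replicate 3 (4339). It was 683 without 3 d replicate 1, 622 without 3 d replicate 2 and 513 without 7 d replicate 1. All 1130 genes with all libraries in had the same sign at both times, beside 66.6% of all genes tested, and 1130 kept an unadjusted p under 0.05 without either of those unbent libraries. Both were nearly fixed in advance, because the genes were chosen on these same libraries, and neither is support for the calls.

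Among the genes called on average, the change was mostly the larger at 7 d, and more often so in rises than in falls. Of the 747 called higher, 714 had the larger change at 7 d and 33 at 3 d, with medians of 0.99 at 3 d and 1.78 at 7 d. Of the 383 called lower, 276 had the larger change at 7 d and 107 at 3 d, with medians of -0.98 and -1.29. These numbers depend on the scaling: TMM factors were 1.04 to 1.11 unbent, 0.973 to 1.11 at 3 d and 0.838 to 0.977 at 7 d. Library totals would make rises at 7 d smaller and falls at 7 d larger, and the split under them was not tested. In 321 of 383 falls and 506 of 747 rises the 3 d change was at least 0.5 of the 7 d change. Taken alone, 7 d called 2432 genes (8.75%; 6.07% higher and 2.68% lower) and 3 d called 0 (3265 at an unadjusted p under 0.05; 913 by DESeq2). The test of 7 d against 3 d called 0 (5617 at an unadjusted p under 0.05; 1797 by DESeq2), so the fit of the average does not show that a gene was equal at both times. The genes called on average that were not called at 7 d were 62 of the falls and 9 of the rises.

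Without any model, 2283 genes (8.21%) had all 6 bent libraries on 1 side of all 3 unbent ones, 1229 above and 1054 below. Both criteria together, called on average and apart in every library, held for 938 genes (3.37%), 612 higher and 326 lower. By mean CPM over all 9 libraries, the share called higher was 10.01% of genes over 100 CPM and 1.00% of those under 1 CPM. The shares called lower were 2.34% and 0.502%. As 6 of the 9 libraries are bent, a rise itself lifts a gene's mean, and depth limits calls at low levels. Of the genes called higher, 104 had at least 100 CPM unbent and 216 had it bent. In counts, the genes called higher took 3.84 to 6.85% of each unbent library, 8.97 to 13.3% after 3 d and 16.6 to 17.2% after 7 d, which describes the called genes and is no test. Those called lower took 2.52 to 3.20% unbent, 1.30 to 1.53% after 3 d and 0.82 to 1.00% after 7 d. The 10 largest rises made up 31.7% of the summed rise in CPM. Of 154 pairs of genes with neighbouring IDs that were both called, 143 changed in the same direction. Over all 19907 neighbouring pairs, called or not, 59.9% had the same sign. These are unlike sets of genes, and the share among unrelated pairs of called genes was not measured.

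**Figure D5:**
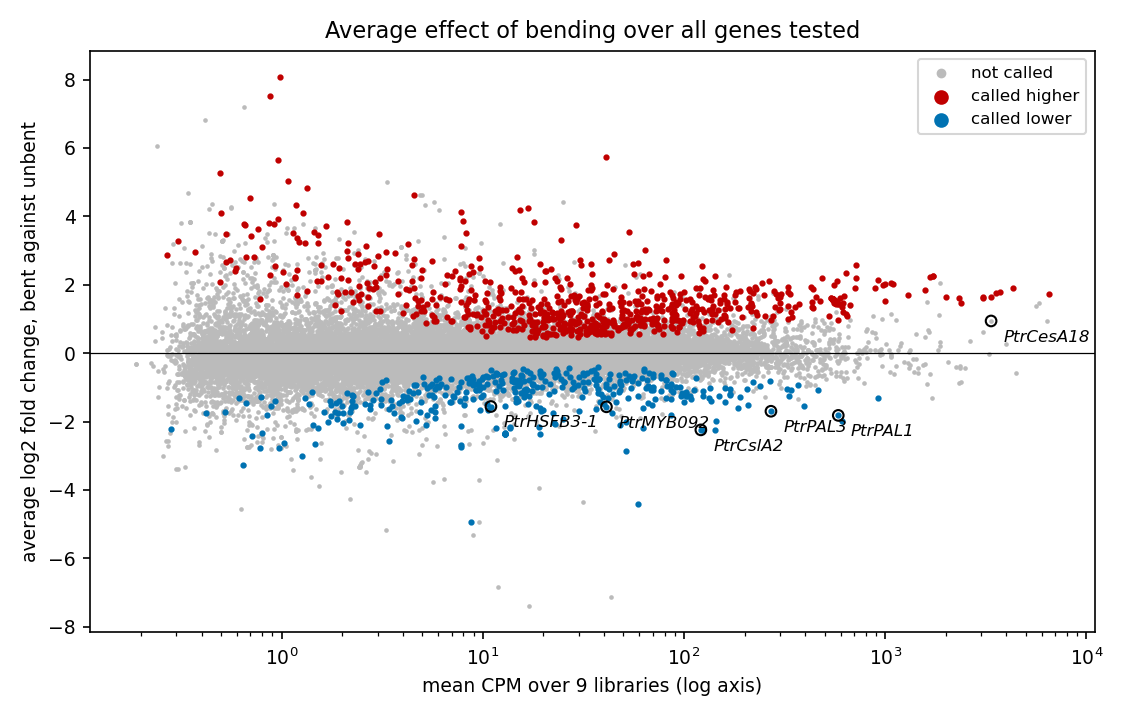
Average log2 fold change of bent against unbent libraries against mean CPM over 9 libraries (log axis) for 27795 genes, with the 747 called higher and the 383 called lower in color and 6 wood genes ringed. Called rises are most frequent at high mean CPM, which takes in the bent libraries and so the rise itself. PtrPAL1 lies among the most abundant of the called falls.

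The deposited IDs carry no names, so only the 2 rises and 2 falls of largest average size, among called genes apart in every library and over 5 CPM in the higher group, are named. Potri.002G074900 was at 0.718, 0.386 and 1.37 CPM unbent, at 8.62, 21.1 and 24 CPM after 3 d and at 154, 40.0 and 118 CPM after 7 d. Every bent library was far above every unbent one, and 7 d lay above 3 d. Its average log2 change was 5.73 ± 0.67 (SE; edgeR adjusted p = 0.0206). Potri.006G206900 was near absent unbent, at 0.0423, 0.611 and 0.0806 CPM, and bent libraries held 3.34 to 10.1 CPM at a like level at both times. It changed by 4.64 ± 0.73 (SE; edgeR adjusted p = 0.0206), with 4.43 at 3 d and 4.84 at 7 d. Its unbent counts were only 1, 19 and 2, and without unbent replicate 2 the average was 6.63. Potri.008G116500 was at 16.7, 9.0 and 24.5 CPM unbent, at 7.52, 2.14 and 7.28 CPM after 3 d and at 1.05, 1.88 and 0.389 CPM after 7 d. It was lower at 3 d and lower still at 7 d, by -2.74 ± 0.49 on average (SE; edgeR adjusted p = 0.0255). Potri.011G046600 was at 398, 20.7 and 69.2 CPM unbent and at 2.52 to 13.3 CPM bent. Its size hangs on unbent replicate 1: the average was -4.41 ± 0.80 (SE; edgeR adjusted p = 0.0256) with it and -2.55 without it. All 4 calls were lost without unbent replicate 1, where adjusted p lay at 0.0710 to 0.0953, and also without unbent replicate 3 or 7 d replicate 3. Potri.011G046600 was further lost without 7 d replicate 1 (edgeR adjusted p = 0.0576) or 7 d replicate 2 (edgeR adjusted p = 0.0508), and with the replicate number as a block (edgeR adjusted p = 0.0789), and Potri.008G116500 without 7 d replicate 1 (edgeR adjusted p = 0.0535). With all bent libraries fitted as 1 group, Potri.006G206900 alone of the 4 was called.

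As PtrHSFB3-1 and PtrMYB092 fell, the average effect was read over genes that the study lists as raised in xylem protoplasts overexpressing either factor, an experiment with other samples. The lists are the IDs given a fold change above 2 in the study's supplementary lists, whose number differs from the number of raised genes in its text, and each list holds the overexpressed factor's own gene. For PtrHSFB3-1, 678 of the 1140 listed IDs in the table were tested, and 20 were called higher (2.95%) and 22 lower (3.24%), beside 2.69% and 1.38% of all genes. Their median log2 change was -0.16, with 61.1% negative, against -0.03 and 53.0% over all genes tested. The comparison was not matched for level, and these IDs had a median level of 5.74 CPM, against 10.9 CPM over all genes. Median changes differed by level in all genes: -0.13 at 1 to 5 CPM, -0.04 at 5 to 20 CPM and 0.08 over 100 CPM. For PtrMYB092, 817 of 1001 IDs were tested, and 30 were called higher (3.67%) and 32 lower (3.92%), with a median of -0.07 and 55.7% negative. The 139 tested IDs on both lists held 5 called higher and 8 lower. The study names PtrPAL4, PtrC4H1, PtrC3H3, PtrCCoAOMT2 and PtrCCR2 as direct targets of both factors. Of these 5 genes, edgeR called 0 in either direction, with 1 at an unadjusted p under 0.05 (PtrCCoAOMT2, -0.66) and a median of -0.03. DESeq2 did not call PtrCCoAOMT2 either (adjusted p = 0.125). The median of the 5 was -0.53 at 3 d and 0.21 at 7 d, so the average hides opposite values. At each time alone edgeR called 0 of them.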

How the data were processed

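RNA-seq read counts of SDX were measured in 9 libraries, 3 in each of 3 groups named by the sample titles. The authors deposited raw counts for 41335 gene models, whole numbers with no normalization. TopHat, without a version, is the aligner named in the submitters' processing notes. The deposited table is marked as version 3 of the gene models. For these libraries, not given in the sources used here are the build of the alignment, how reads were counted, whether strand was used, and what was done with reads that map more than once. Close copies, overlapping genes and antisense genes have uncertain counts for that reason. In 302 genes tested the counts were identical to those of another gene, and 7 of these were called. All replicates differed beyond sampling noise (within groups, chi-square per gene was 22.0 to 92.4), and 0 columns were left unmatched.

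The tests were edgeR 4.0.16 quasi-likelihood tests (R 4.3.3), two-sided, after filterByExpr (27795 genes, 99.87 to 99.93% of each library's counts) and TMM scaling. All 3 groups entered 1 fit without covariates, and the contrast was the mean of the 3 d and 7 d coefficients minus unbent. The biological coefficient of variation was 30.9%. Standard errors were taken as the size of a change over the square root of its F. One count was worth 0.0339 to 0.0479 CPM before scaling, which limits genes at low levels. Ratios within pairs were log2 ratios of counts with 1 added. Alternatives were other scaling factors and filters, DESeq2 1.42.0, edgeR's exact test, limma 3.58.1 voom, other designs, thinned counts and each library left out; the DESeq2 tests of single times were added after seeing the data. Procedures were tested on simulated data.

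The members and lists were chosen with earlier results of these data known. Named genes are the 31 wood genes that lists or primers of the study pair with IDs, PtrActin, and 2 IDs in each direction by the largest average change among called genes with libraries apart and at least 5 CPM. The reference table (assembly P.trichocarpa_v4.1) holds 0 of the IDs, so families by description, phloem, cambium and leaf markers, coordinates and sequences beyond the primers of the study were not analysed here.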

Additional observations from a re-analysis of the deposited data

Results flagged for a closer look

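The level of PtrMYB092 in the bent libraries held 1 library far from the other 5. 7 d replicate 3 was at 14.3 CPM and the others at 25.7 to 28.8 CPM, and the gap was 0.788 of the whole range, over Dixon's critical value of 0.625 for 6 libraries. It was the only 1 of 42 groups of bent libraries to pass, and chance alone passes about 1 in 20 groups. Without that library the average change of PtrMYB092 was -1.45 (edgeR adjusted p = 0.0743) and was not called.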

How the results depend on the processing

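The number of calls depended on the processing. PtrHSFB3-1, PtrMYB092, PtrPAL1, PtrPAL3 and PtrCslA2 were negative in each of 20 alternatives. That sign was nearly fixed in advance, because in these genes every bent library lay below every unbent one. It is no support for the calls. By adjusted p, edgeR called 1130 genes (747 higher, 383 lower), library totals called 1502 (619 and 883), DESeq2 2805 (1806 and 999), the exact test 1458 (899 and 559), and the fit of all bent libraries as 1 group 49 (15 and 34). A test against a 2-fold change called 0 (0 higher, 0 lower). With 1 library left out the count ran from 0 to 1321 (0 to 936 higher, 0 to 396 lower), and the cause was not tested. Wood genes called lower were 5, with 8 by library totals, 8 by DESeq2, 1 in the fit of all bent libraries as 1 group, and 0 to 7 with 1 library left out. DESeq2 called 1 wood gene higher, PtrCesA18, which edgeR did not, and called 913 genes at 3 d, 4438 at 7 d and 1797 between the times, against 0, 2432 and 0 by edgeR. With 1 library left out those edgeR counts were 0 to 30, 343 to 2704 and 0 to 3. Genes apart in every library numbered 1054 below and 1229 above, with 1836 below by library totals, and 1126 to 2572 below and 1293 to 3185 above with 1 library left out, where fewer libraries must be apart. The median of the cellulose synthases was 0.21 by library totals and 0.25 to 0.53 with 1 library left out, and that of the monolignol genes was -0.53 to -0.18. PtrHCT1 and Ptr4CL5 were called lower by library totals, DESeq2 and the exact test, and PtrC4H2 by library totals and DESeq2. No ratio within a pair passed under any alternative, which says nothing of stability: the smallest possible p is 0.0179 with 5 bent libraries against 3 and 0.0357 with 6 against 2. With library totals PtrPAL4, PtrPAL5, PtrC4H1, PtrHCT6 and PtrCSE1, none of them called, turned negative.

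Replicate numbers are shared by the groups, but the labels do not say that they pair samples. Deviations from the group mean correlated from -0.34 to 0.39 in same-numbered unbent and bent libraries. In unlike-numbered ones they correlated from -0.28 to 0.33. Between 3 d and 7 d libraries the same-numbered pairs gave 0.17 to 0.28 and the others -0.27 to 0.03. Deviations within a group of 3 sum to 0, so these values depend on each other. Whether libraries share something by number was not tested. With the replicate number as a block, 846 genes were called (587 higher, 259 lower), and PtrMYB092 (adjusted p = 0.0591) and Potri.011G046600 (adjusted p = 0.0789) were not among them. Depth limits genes at low levels, and 9 tested genes had 0 counts in all unbent libraries.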
